A study of Mus musculus with 16 samples.

Results

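The 10 genes Cd80, Cd86, Icosl, Cd40, Cd83, Cd274, Pdcd1lg2, Vtcn1, Ido1 and Ccr7, which act in T-cell costimulation and inhibition, were followed in MPI-2 cells exposed to Mycobacterium abscessus. They are 10 of the 55359 genes in the count files and were matched by symbol to their Ensembl identifiers. All 10 passed the filter on low counts, Vtcn1 through the exposed libraries of day 5 alone. Cd40 and Ccr7 would not have passed without these libraries either, so their calls that involve exposed day 5 are descriptions only. The symbols were chosen by function, but with the levels of all 4 groups already known, so the values and tests below describe these genes and are not independent support for the choice. MPI-2 is a single mouse line of alveolar-like macrophages, labelled Wildtype, and all libraries came from cells kept in medium with GM-CSF. One group of 4 libraries had been exposed to M. abscessus, a nontuberculous mycobacterium, and was taken at day 1, and another at day 5. Uninfected cells of the same genotype, in the same medium and without the bacterium, gave 4 libraries at day 1 and 4 at day 5. The labels number 4 biological replicates in each group without saying how they were kept apart, so the spread between them may in part be technical. Dose of bacteria and share of infected cells are not given in the sources used here.

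A T cell needs a signal besides its antigen receptor. CD80 and CD86, the products of Cd80 and Cd86, give it through CD28 and withdraw it through CTLA-4, and ICOS ligand, from Icosl, acts through ICOS. PD-L1 (from Cd274) and PD-L2 (from Pdcd1lg2) inhibit T cells through PD-1, B7-H4 (from Vtcn1) inhibits them through a receptor that is not settled, and IDO1 does so by consuming tryptophan. CD40 receives the help of T cells through CD40 ligand, whereas CD83 and the homing receptor CCR7 mark mature dendritic cells. Alveolar macrophages are known as poor stimulators of naive T cells.

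Libraries held 46154875 to 81995629 counts, and no pair of replicates agreed within sampling noise. Exposed day 5 libraries spread most, with a median highest to lowest ratio per gene of 1.59 against 1.19 to 1.25 in the other groups. The fit shares 1 dispersion per gene among the 4 groups. Standard errors at day 1 therefore also carry that spread, and those at day 5 may understate it. Replicates 2 and 3 of that group carry library codes of another series than the other 14 libraries. All 7 macrophage markers (Csf1r, Adgre1, Cd68, Lyz2, Mertk, Fcgr1, Itgam) and all 7 alveolar macrophage markers (Siglecf, Pparg, Itgax, Marco, Chil3, Car4, Krt79) exceeded 1 CPM (counts scaled to library size) in every group, as the label of the line has it. In bulk RNA, fewer cells of a type and less RNA per cell cannot be told apart.

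Promoter sequences are shown for Icosl and for the inhibitory ligands Cd274, Pdcd1lg2 and Vtcn1, whose levels in exposed cells the comparisons below turn on. Each run holds the 250 bases before the annotated start in RefSeq on GRCm38.p6, 5′ to 3′ on the plus strand, and the table had an entry for 5 of the 10 genes. Capitals mark a match to the NF-kB consensus.
Icosl, chr10:78069118-78069367: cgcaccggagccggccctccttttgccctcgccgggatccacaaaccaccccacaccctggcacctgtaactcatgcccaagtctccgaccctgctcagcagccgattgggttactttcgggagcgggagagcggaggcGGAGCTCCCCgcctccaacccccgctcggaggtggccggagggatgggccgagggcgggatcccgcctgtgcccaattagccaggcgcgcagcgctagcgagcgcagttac
Cd274, chr19:29367188-29367437: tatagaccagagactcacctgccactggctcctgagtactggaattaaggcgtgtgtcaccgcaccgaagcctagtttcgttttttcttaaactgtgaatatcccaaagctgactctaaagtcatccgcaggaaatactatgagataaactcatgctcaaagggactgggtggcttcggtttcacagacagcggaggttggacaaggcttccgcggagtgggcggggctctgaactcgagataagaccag
Pdcd1lg2, chr19:29410669-29410918: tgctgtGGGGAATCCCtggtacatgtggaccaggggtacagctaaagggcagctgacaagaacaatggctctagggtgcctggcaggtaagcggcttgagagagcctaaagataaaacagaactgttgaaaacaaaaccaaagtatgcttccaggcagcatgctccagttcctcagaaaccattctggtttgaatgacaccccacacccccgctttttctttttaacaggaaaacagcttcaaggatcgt
Vtcn1, chr3:100825209-100825458: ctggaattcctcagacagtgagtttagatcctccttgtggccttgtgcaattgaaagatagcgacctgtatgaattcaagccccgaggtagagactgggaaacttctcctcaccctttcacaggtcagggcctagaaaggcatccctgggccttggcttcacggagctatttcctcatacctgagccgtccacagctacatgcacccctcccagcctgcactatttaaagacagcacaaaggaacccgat
The match starts at position -111 from the transcription start in Icosl (GGAGCTCCCC) and at position -244 in Pdcd1lg2 (GGGGAATCCC). The search covered 3 motifs on both strands, in windows running from 250 bases before to 50 after the start: the NF-kB consensus, the core of the interferon-stimulated response element (GAAA, any 2 bases, GAAA) and the gamma-activated site TTCNNNGAA. Over all 32851 RefSeq windows, 8.46% held the first, 3.44% the second and 8.3% the third. The other 3 windows, those of Cd80, Cd274 and Vtcn1, held none of these letters, which says nothing about whether the factors bind there. In the same annotation Cd274 and Pdcd1lg2 are adjacent coding genes on chromosome 19, and Cd80 and Cd86 both lie on chromosome 16 but are not neighbours.

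Vtcn1, which was singled out for its near absence in uninfected libraries, is left out of the counts and medians that follow. Cd40 and Ccr7, which passed the filter only with the exposed libraries of day 5, stay in. Their calls at day 5 are not independent of that filter. At day 1, exposure raised 4 of the other 9 genes (Cd80, Icosl, Cd274 and Pdcd1lg2) and lowered none. Over all 17190 genes tested, 13.4% rose and 10.5% fell at day 1 (quasi-likelihood test of edgeR, p adjusted by Benjamini-Hochberg over all genes, threshold 0.05). At day 5, 7 of the 9 genes rose and 1, Cd80, fell, against 28.6% and 28.4% of all genes, and Ido1 alone was not called in either direction. The median log2 fold change of the 9 genes was 0.39 at day 1 and 1.23 at day 5, where that of all genes was 0.03 and 0.02. Libraries of exposed and uninfected cells did not overlap for 5 of the 9 genes at day 1 and 6 at day 5, all of them higher after exposure, which held for 19.6% and 22.3% of all genes. Since the genes were listed with these levels known, nothing is read from these counts.

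**Figure D1:**
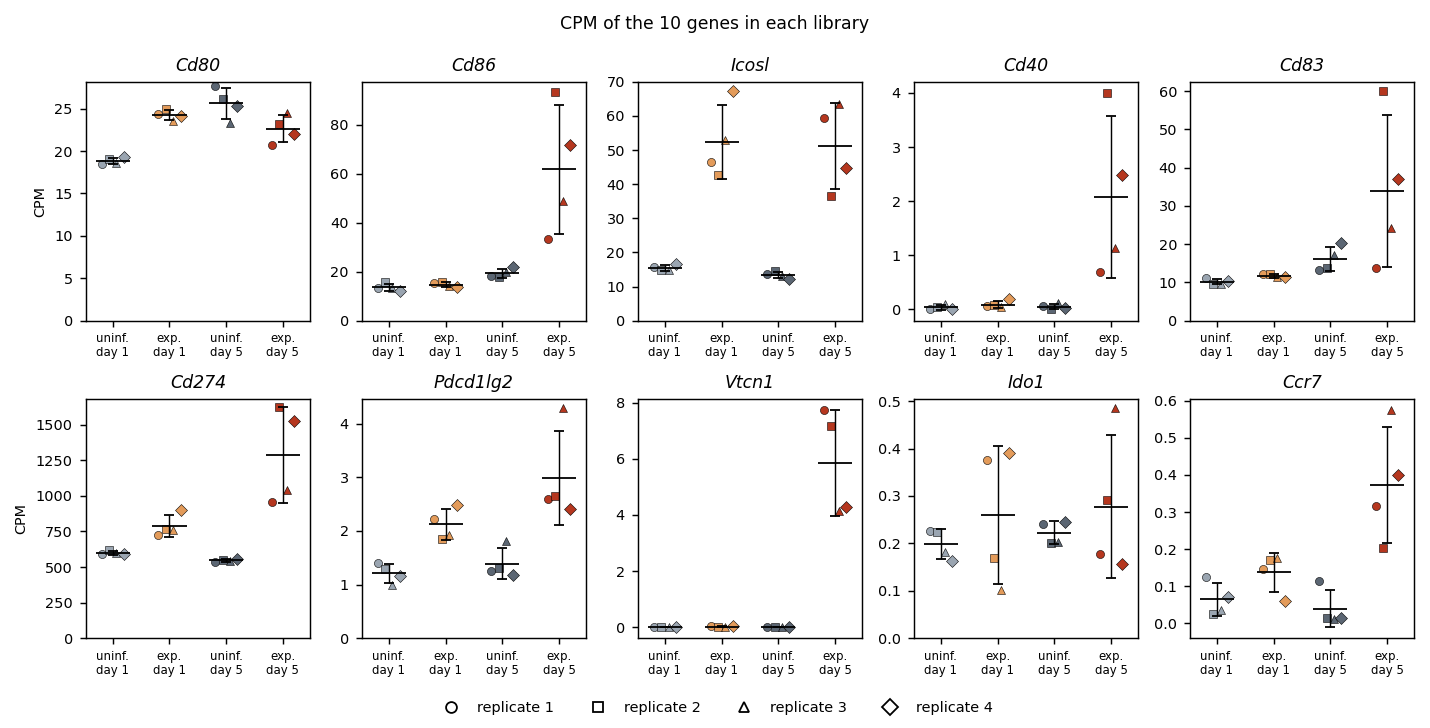
CPM (linear axis, own scale per panel) of the 10 genes in each of the 16 libraries, by group; symbols are replicates, the long bar is the mean and the whiskers are 1 SD of 4 libraries. Icosl, Cd274 and Pdcd1lg2 stand apart in exposed cells at both days, Cd86, Cd40, Vtcn1 and Ccr7 at day 5 only, and Cd80 and Cd83 at day 1 only.

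Of the CD28 ligands, Cd80 rose by a little at day 1, and Cd86 rose at day 5. All values per library below are CPM in the order of replicates 1 to 4. Cd80 measured 18.5, 19.1, 18.6 and 19.3 in uninfected and 24.3, 25.0, 23.5 and 24.1 in exposed cells at day 1. Every exposed library lay above every uninfected one, and the spread within each group was small. At day 5 it measured 27.7, 26.2, 23.3 and 25.3 in uninfected and 20.8, 23.2, 24.5 and 22.0 in exposed cells, and the groups overlapped. The log2 fold change on exposure was 0.36 ± 0.07 (SE, n = 4 per group, edgeR adjusted p = 0.00144) at day 1 and -0.18 ± 0.07 (adjusted p = 0.04) at day 5. The day 5 call was lost in 11 of 17 alternatives. It was lost without uninfected replicate 1, 2 or 4 (adjusted p = 0.132, 0.0787 and 0.0529) or exposed replicate 1 or 4 (0.117 and 0.0812). The same held with RLE size factors (0.061), the replicate block (0.0611), no filter beyond 1 read (0.197) and the 1 CPM filter (0.0741). So it did with the day 5 libraries alone (0.145) and with replicates 3 and 4 only (-0.07, adjusted p = 0.712). Uninfected cells alone differed by day, with Cd80 higher by 0.44 ± 0.07 on the log2 scale at day 5 (adjusted p = 0.00031).

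Cd86 was not called at day 1 and was 3.2-fold higher in exposed cells at day 5. The day 1 values were 13.4, 15.8, 13.2 and 12.1 in uninfected and 15.2, 15.9, 14.3 and 13.7 in exposed cells, and they overlapped. At day 5 uninfected cells held 18.1, 17.7, 19.7 and 21.7, and exposed cells 33.2, 93.4, 49.0 and 71.6. All 4 exposed libraries lay above the uninfected ones, with replicate 2 highest and replicate 1 lowest. The log2 fold change was 0.11 ± 0.22 (edgeR adjusted p = 0.747) at day 1 and 1.68 ± 0.22 (adjusted p = 5.19e-06) at day 5. Group means ran from 13.6 ± 1.54 in uninfected cells at day 1 through 14.8 ± 1.01 in exposed cells at day 1 and 19.3 ± 1.82 in uninfected cells at day 5 to 61.8 ± 26.3 in exposed cells at day 5 (SD, n = 4), and of these neighbours only the first pair overlapped.

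Icosl, the ligand of ICOS, rose at both days. At day 1 it measured 15.6, 14.8, 14.9 and 16.6 in uninfected and 46.6, 42.8, 52.9 and 67.3 in exposed cells. At day 5 the values were 13.7, 14.5, 13.03 and 12.3 in uninfected and 59.5, 36.6, 63.5 and 44.7 in exposed cells. At neither day did the groups overlap, and the ranges of exposed cells at the 2 days overlapped. Exposure raised Icosl by 1.76 ± 0.15 on the log2 scale at day 1 (3.38-fold, edgeR adjusted p = 1.95e-07) and by 1.93 ± 0.16 at day 5 (3.81-fold, adjusted p = 6.78e-09). The difference between these effects, 0.18 ± 0.21, did not pass (adjusted p = 0.556), and exposed cells of day 5 and day 1 differed by -0.04 ± 0.15 (adjusted p = 0.862). Among the promoter runs above, that of Icosl holds the NF-kB match nearest to the start, and any part of it in these values was not tested.

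Cd40, the receptor for CD40 ligand, was near 0 in 3 of the 4 groups. Counts per library were 1, 4, 6 and 0 in uninfected and 5, 6, 3 and 9 in exposed cells at day 1. At day 5 they were 5, 0, 10 and 2 in uninfected and 51, 275, 63 and 143 in exposed cells, the latter equal to 0.700, 4.00, 1.13 and 2.48 CPM. Exposed day 5 libraries thus all stood above every other library, and differed among themselves more than for any other of the 10 genes, with a highest to lowest ratio of 5.72. Summed counts at day 5, 532 against 17, gave a ratio of 35.3 (95% counting interval 21.8 to 61.0, which covers counting error only), and the fitted log2 fold change was 5.12 ± 0.70 (edgeR adjusted p = 6.45e-06). It was 5.89 without uninfected replicate 3, which held most of the uninfected counts. At day 1 the 23 counts against 11 gave a ratio of 2.05 (0.959 to 4.65), and no difference was detectable at this depth (fitted log2 fold change 1.03, adjusted p = 0.468, or 1.82 without uninfected replicate 3).

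Cd83, a surface protein of mature dendritic cells and activated lymphocytes, rose 2.1-fold at day 5 with overlapping libraries. Values at day 1 were 11.1, 9.62, 9.61 and 10.4 in uninfected and 12.1, 12.2, 11.3 and 11.3 in exposed cells. At day 5 they were 13.3, 13.7, 17.1 and 20.2 in uninfected and 13.8, 59.9, 24.3 and 37.1 in exposed cells. The exposed libraries of day 1 were all slightly higher, whereas at day 5 replicate 1 of the exposed cells lay within the uninfected range and replicate 2 far above it. The log2 fold change was 0.21 ± 0.30 (edgeR adjusted p = 0.66) at day 1, which passed when only the 8 libraries of that day were fitted (0.21, adjusted p = 0.0272). The dispersion shared with day 5 enters the first of these. SD relative to the mean was 6.86% in uninfected and 4.07% in exposed cells at day 1, and 58.7% in exposed cells at day 5. At day 5 it was 1.07 ± 0.29 (adjusted p = 0.00492), and with exposed replicates 1 and 4 alone, those without the other library codes, 0.66 (adjusted p = 0.0681).

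Cd274, which encodes PD-L1, was abundant in all cells and rose at both days. Its day 1 values were 590, 623, 596 and 592 in uninfected and 722, 766, 763 and 904 in exposed cells. At day 5 uninfected cells held 539, 552, 542 and 558 and exposed cells 960, 1625, 1041 and 1524. Exposed libraries lay above uninfected ones at both days, and those of day 5 lay above those of day 1. Group means were 600.3 ± 15.2 and 789 ± 79.3 at day 1 and 548 ± 9.26 and 1288 ± 336 at day 5 (SD, n = 4). The log2 fold change was 1.23 ± 0.14 at day 5 (2.35-fold, edgeR adjusted p = 2.69e-07) and 0.39 ± 0.13 at day 1 (1.31-fold, adjusted p = 0.0392). That day 1 call was lost without any 1 of the 4 uninfected libraries (adjusted p = 0.0889, 0.0659, 0.084 and 0.0916), without exposed replicate 2, 3 or 4 (0.0644, 0.0659 and 0.133), and with RLE size factors (0.0609).

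Pdcd1lg2, which encodes PD-L2 and lies next to Cd274, stood near 1 CPM in uninfected cells. At day 1 it measured 1.39, 1.29, 0.995 and 1.16 in uninfected and 2.22, 1.85, 1.92 and 2.49 in exposed cells. At day 5 the values were 1.24, 1.304, 1.82 and 1.18 in uninfected and 2.60, 2.65, 4.29 and 2.41 in exposed cells. Groups did not overlap at either day, and replicate 3 was the highest library in both groups of day 5. The log2 fold change was 0.80 ± 0.21 (1.74-fold, edgeR adjusted p = 0.00917) at day 1 and 1.10 ± 0.21 (2.15-fold, adjusted p = 0.000135) at day 5. The 2 PD-1 ligands were thus both called higher at both days, though the day 1 call of Cd274 was lost without most single libraries. Of their promoter runs above that of Pdcd1lg2 alone holds a match of the 3 motifs, whose part in these values was not tested.

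Vtcn1, which encodes B7-H4, was counted at day 5 in exposed cells and hardly elsewhere. It had 0 counts in all 8 uninfected libraries and 2, 0, 0 and 2 counts in exposed cells at day 1. Exposed cells at day 5 held 563, 493, 231 and 247 counts, or 7.73, 7.18, 4.15 and 4.28 CPM, with a mean of 5.84 ± 1.88 (SD, n = 4). Replicates 1 and 2 were the higher ones, unlike for Cd86, Cd40 and Cd274, where replicate 1 was lowest. Against an assumed floor of 3 counts over the 4 uninfected libraries, equal to 0.0104 CPM, the ratio at day 5 was 576. Leaving out 1 library at a time gave ratios to the floor of 417 to 627. Leaving out an uninfected library lowers the ratio by itself, since the same 3 counts are then set against fewer reads. Without the floor, the counting interval of the day 5 ratio had a lower limit of 468 and no upper limit. Exposed cells at day 5 exceeded those of day 1 by a ratio of 416 (counting interval 162 to 1530, from 1534 and 4 counts). Since the gene was singled out for its near absence in uninfected libraries, no test is given.

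Ido1, whose enzyme opens the kynurenine pathway of tryptophan breakdown, was low in all groups, with 7 to 31 counts per library. At day 1 it measured 0.226, 0.224, 0.181 and 0.163 CPM in uninfected and 0.375, 0.170, 0.102 and 0.391 in exposed cells. At day 5 the values were 0.241, 0.202, 0.203 and 0.245 in uninfected and 0.178, 0.291, 0.485 and 0.156 in exposed cells. Exposed libraries spread to both sides of the uninfected ones, and the groups overlapped at both days. The log2 fold change was 0.35 ± 0.43 (edgeR adjusted p = 0.593) at day 1 and 0.30 ± 0.42 (adjusted p = 0.56) at day 5, so that no difference was detectable at this depth. The day 5 value was -0.09 without exposed replicate 3 and -0.40 with exposed replicates 1 and 4 alone.

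Ccr7, the receptor for CCL19 and CCL21 that guides mature dendritic cells to lymph nodes, had few counts throughout. It had 10, 2, 2 and 4 counts in uninfected and 12, 13, 12 and 3 in exposed cells at day 1. At day 5 there were 9, 1, 1 and 1 counts in uninfected and 23, 14, 32 and 23 in exposed cells, or 0.114, 0.0155, 0.0127 and 0.0153 against 0.316, 0.204, 0.575 and 0.399 CPM. Groups overlapped at day 1 and lay apart at day 5, with uninfected replicate 1 well above the other 3. Summed counts at day 5, 92 against 12, gave a ratio of 8.64 (counting interval 4.72 to 17.3), and the fitted log2 fold change was 3.12 ± 0.62 (edgeR adjusted p = 0.00027). Without uninfected replicate 1 that value was 4.51. At day 1, 40 counts against 18 gave a ratio of 2.18 (1.22 to 4.03), and the fit gave 1.08 ± 0.62 (adjusted p = 0.223), or 1.68 without uninfected replicate 1.

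**Figure D2:**
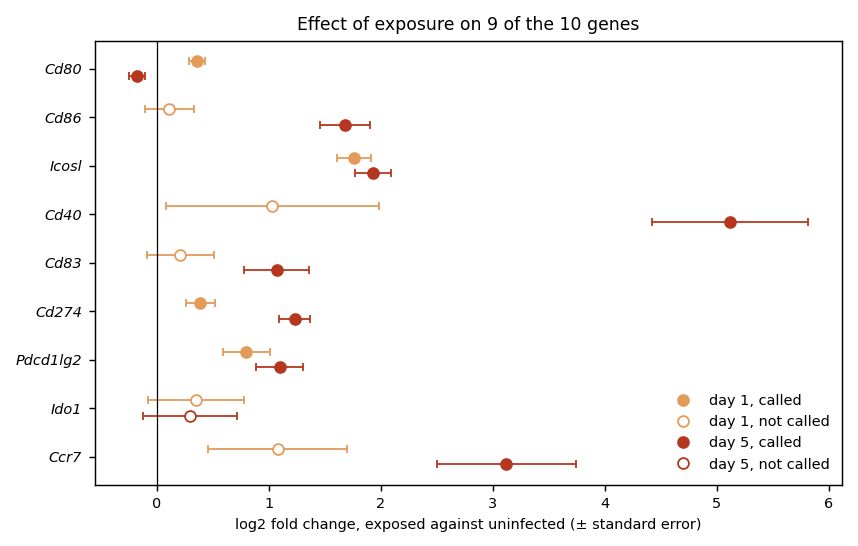
Log2 fold change of exposed against uninfected cells (horizontal axis, whiskers 1 SE) for 9 of the 10 genes at day 1 and day 5; filled points passed an adjusted p of 0.05, open points did not, and Vtcn1 is left out because its uninfected libraries held 0 counts. Icosl and Pdcd1lg2 have nearby points for the 2 days, and Cd40, Cd86 and Cd274 lie further right at day 5.

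The exposure effect itself changed between days for 4 of the 9 genes other than Vtcn1. It was larger at day 5 for Cd86 by 1.56 ± 0.31 on the log2 scale (edgeR adjusted p = 0.000874), for Cd274 by 0.84 ± 0.19 (adjusted p = 0.00202) and for Cd40 by 4.09 ± 1.33 (adjusted p = 0.0227). For Cd80 it was smaller by 0.54 (-0.54 ± 0.10, adjusted p = 0.00046), from a rise at day 1 to a small fall at day 5 whose call most alternatives lost. Among all genes 16.4% changed upward and 19.5% downward in this comparison. The Cd40 result did not pass without uninfected day 1 replicate 2 (3.96, adjusted p = 0.0648) or replicate 3 (3.29, adjusted p = 0.14), and its value was 4.86 without uninfected day 5 replicate 3. Cd83 (0.86 ± 0.41, adjusted p = 0.117) and Ccr7 (2.04 ± 0.91, adjusted p = 0.0883) did not pass. Cd83 did so without exposed day 5 replicate 1 (1.12, adjusted p = 0.00554), and Ccr7 without uninfected day 5 replicate 1 (3.43, adjusted p = 0.00871), while Ccr7 was at 1.44 (adjusted p = 0.304) without uninfected day 1 replicate 1. For Pdcd1lg2 the change was 0.30 ± 0.29 (adjusted p = 0.448), and for Ido1 it was -0.05 ± 0.60 (adjusted p = 0.96).

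Between the days of uninfected cells, Cd80 was the 1 gene of these 9 that was called, where 10.8% of all genes rose and 8.91% fell from day 1 to day 5. Cd86 (0.50 ± 0.22, edgeR adjusted p = 0.117) and Cd83 (0.66 ± 0.29, adjusted p = 0.128) had higher and Icosl (-0.21 ± 0.15, adjusted p = 0.36) and Cd274 (-0.13 ± 0.13, adjusted p = 0.529) lower day 5 libraries without overlap, as had 17.6% and 17.9% of all genes. In a fit on the 8 uninfected libraries alone Cd86 (0.51, adjusted p = 0.000189), Icosl (-0.20, adjusted p = 0.0315) and Cd83 (0.67, adjusted p = 0.000573) passed too.

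Among exposed cells, 6 of the 9 genes other than Vtcn1 were higher at day 5 than at day 1 and none was lower, where 25.6% of all genes rose and 25.2% fell. Cd86 rose by 2.06 ± 0.22 on the log2 scale (edgeR adjusted p = 9.84e-07), Cd40 by 4.57 ± 0.68 (adjusted p = 2.08e-05), Cd83 by 1.53 ± 0.30 (adjusted p = 0.000403) and Cd274 by 0.71 ± 0.13 (adjusted p = 0.000219). The other 2 were Pdcd1lg2 and Ccr7, and Cd40 and Ccr7 passed the filter only with the exposed libraries of day 5. The rise of Pdcd1lg2 (0.49 ± 0.20, adjusted p = 0.0475, libraries overlapping) was lost without exposed day 1 replicate 1, 2 or 3 (adjusted p = 0.0737, 0.126 and 0.121) or exposed day 5 replicate 3 (0.219), and with the replicate block (0.0713). That of Ccr7 (1.38 ± 0.53, adjusted p = 0.0378) was lost without any 1 of the exposed day 1 libraries (0.074, 0.0586, 0.0562 and 0.0948) or exposed day 5 replicate 3 or 4 (0.112 and 0.069). Cd80, Icosl and Ido1 were not called.

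The 4 exposed libraries of day 5 did not rank alike for all genes. Cd86, Cd40, Cd83 and Cd274 shared 1 order, with replicate 2 highest, then 4, then 3, and replicate 1 lowest. This order was held by 640 genes, or 3.72% of those tested. The highest to lowest ratio was 2.81 for Cd86, 5.72 for Cd40, 4.33 for Cd83 and 1.69 for Cd274, against a median of 1.59 over all genes. Icosl ran from replicate 3 through 1 and 4 to replicate 2, an order held by 10.3% of genes, with a ratio of 1.74. Pdcd1lg2 and Ido1 shared the order 3, 2, 1 and 4, whereas Vtcn1 was highest in replicate 1 and Cd80 varied by a ratio of only 1.18. Replicates 2 and 3, which have the other library codes, took the first and the third place for the first 4 genes, and the part of the library series in this order was not tested.

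**Figure D3:**
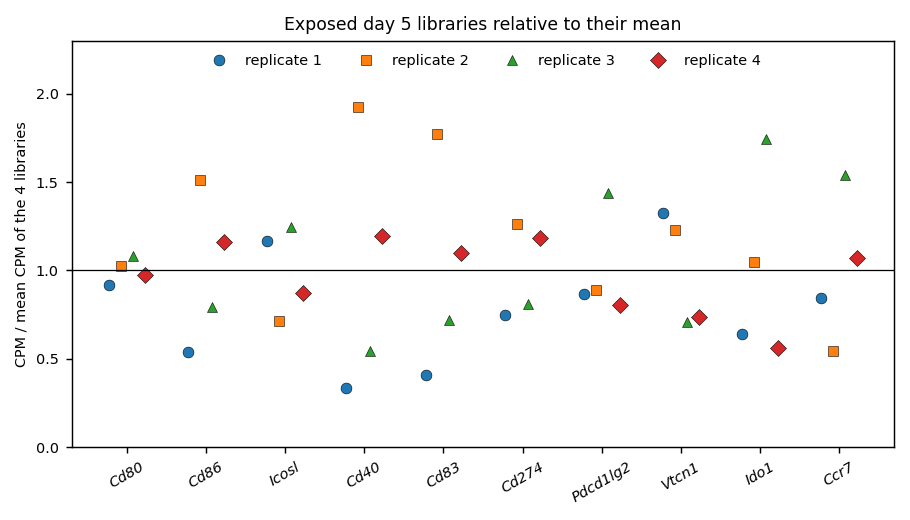
CPM in each exposed day 5 library divided by the mean of the 4 libraries (linear axis, the line at 1 is that mean), for the 10 genes; colours and symbols are replicates. Replicate 2 is highest and replicate 1 lowest for Cd86, Cd40, Cd83 and Cd274, and the order differs for Icosl, Pdcd1lg2, Vtcn1 and Ccr7.

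Genes with the most similar pattern over the 16 libraries were sought for each of the 10 (Pearson correlation of log2 CPM, 10934 candidates of at least 1 CPM on average). These are descriptions, since the libraries share their groups. Cd86 was closest to Hilpda (r = 0.988) and Ccdc50 (0.986), and Cd274 to Pdrg1 (0.987) and Mdm2 (0.985). Icosl was closest to Ptger4 (0.983), a prostaglandin E2 receptor, and Ikbke (0.978), a kinase of innate immune signalling. For Vtcn1 these were Gimap4 (0.992) and Clu (0.991), and for Cd83 Glipr2 (0.958) and the chemokine gene Ccl2 (0.952). Cd40 was closest to Blcap (0.955) and Zbtb46 (0.951), the latter a transcription factor of conventional dendritic cells. Cd80 had Atp8b4 (0.939) and Il18rap (0.934), and Pdcd1lg2 had Zfp28 (0.95) and Plscr1 (0.943). Ccr7 reached 0.894 with Alpk1 and 0.881 with Snord89, and Ido1 no more than 0.716 with Tagap1 and 0.69 with Gpt.

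Around these genes, 101 others of T-cell costimulation and inhibition were listed in 10 groups, and 84 of them had enough counts to be tested. At day 1, 27 rose and 4 fell, with a median log2 fold change of 0.23, where 13.4% and 10.5% of all genes did. At day 5, 49 rose and 14 fell, with a median of 0.66, where 28.6% and 28.4% of all genes did. Some of those that rose, among them Btnl2 and Slamf1, passed the filter only through the exposed libraries of day 5. The effect of exposure was larger at day 5 for 35 and smaller for 11, where 16.4% and 19.5% of all genes differed so. The counts of the single groups below are read against the same shares.

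Of the other B7-related ligands 3 were tested. Vsir, which encodes the inhibitory ligand VISTA, fell from 171 to 90.0 CPM at day 1 and from 164 to 70.3 CPM at day 5 (log2 fold change -0.93 ± 0.10 and -1.22 ± 0.10, edgeR adjusted p = 1.32e-06 and 4.01e-09). Thus it moved against Cd274, Pdcd1lg2 and Vtcn1. Cd276, which encodes B7-H3, rose by 1.79 ± 0.23 at day 5, from 3.00 to 10.4 CPM (adjusted p = 2.43e-06). Btnl2 went from 1 to 89 counts over the 4 libraries at day 5, and passed the filter on low counts through those exposed libraries alone.

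Among TNF-family ligands, Tnfsf15, the ligand of DR3, rose by 2.89 ± 0.32 at day 1 and 6.25 ± 0.35 at day 5, from 0.435 to 33.3 CPM at the later day. Tnfsf14, also known as LIGHT, fell by 2.46 at day 5 (-2.46 ± 0.28, edgeR adjusted p = 3.71e-07). Of 11 other checkpoint genes, mostly of ligands, 3 rose at day 1 and 7 rose and 2 fell at day 5. They include the receptor genes Havcr2, which encodes TIM-3, and Sirpa. From uninfected to exposed cells at day 5, Havcr2 went from 92.0 to 76.75 CPM and Sirpa from 794 to 983 CPM. Lgals9 (galectin-9, a ligand of TIM-3) rose by 1.71 and 2.51 at the 2 days, and H2-T23 (Qa-1, a ligand of NKG2A) by 1.13 and 1.92. Cd200, whose product inhibits myeloid cells, rose by 1.97 ± 0.14, and Pvr, a ligand of TIGIT, by 1.64 ± 0.18, both at day 5 only in the calls.

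Of 9 adhesion and SLAM partners of T cells, 3 rose at day 1 and 5 rose and 2 fell at day 5. Icam1, the ligand of LFA-1, rose by 0.73 and then by 1.77 ± 0.12, and Cd48 by 0.40 and 0.41. Slamf7 (8.65 ± 0.80) and Slamf1 (6.81 ± 0.68) rose at day 5 from 9 counts each over the 4 uninfected libraries to 3330 and 935 counts. Exposed libraries of that day ranged from 2.77 to 24.7 CPM for Slamf7 and from 1.10 to 6.39 CPM for Slamf1. Slamf1 passed the filter on low counts through these libraries alone. Cd24a, a costimulatory glycoprotein, rose by 0.94 ± 0.22 at day 1 and fell by 2.06 at day 5 (-2.06 ± 0.24, edgeR adjusted p = 5.71e-07).

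Soluble and metabolic inhibitors of T cells were mixed, with 2 of 10 higher at day 1 and 4 higher and 1 lower at day 5. The lower count was 3 without exposed day 5 replicate 3 and 2 without exposed day 5 replicate 2 or uninfected day 5 replicate 1 or 2. Ebi3 and Il27, the subunits of interleukin-27, rose at both days, by 1.36 and 2.87 for Ebi3 and by 1.75 and 1.04 for Il27. Nos2, the inducible nitric oxide synthase, rose by 6.23 ± 0.86 and Tgfb1 by 0.76 ± 0.15 at day 5. Around Ido1, 11 genes of the kynurenine pathway or of other tryptophan use and transport had a day 5 median of -0.40. Of these 1 was higher, Wars1 (0.84), a tryptophan tRNA synthetase outside the pathway itself. Another 4 were lower, among them Kyat1 (-1.59 ± 0.18), Kmo (-2.41 ± 0.57) and Kynu (-0.54 ± 0.12). Kmo had few counts, 67 in uninfected and 11 in exposed cells over the 4 libraries of day 5. With the filter of 1 CPM in 4 libraries, 6 of the 11 genes were tested and 2 were lower. With the main filter, the genes lower at day 5 were 7 without exposed day 5 replicate 3 and 6 with exposed replicates 1 and 4 alone. They were 2 with replicates 3 and 4 of each group alone. At day 1 Kyat1 fell (-0.68), and Kynu (0.34, edgeR adjusted p = 0.0472) and Haao (1.15, adjusted p = 0.0347) rose, calls that 7 and 6 of the 8 single libraries removed when left out, with adjusted p up to 0.117 and 0.104.

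Among the genes that carry the CD40 signal inside the cell, 6 of 12 were higher at day 1 and 11 of 12 at day 5. At either day 0 were lower. Relb, an NF-kB subunit of the non-canonical branch, rose by 1.38 ± 0.09 and 2.72 ± 0.10 (edgeR adjusted p = 3.16e-09 and 1.28e-13). Traf5 rose by 1.24 and 2.57, Birc3 by 0.97 and 2.02, and Nfkb2 by 0.79 and 1.83. Cd40 itself had 23 counts over the 4 exposed libraries of day 1 and was not called there. Whether these changes involve a signal through CD40 was not tested. The median of the group was 0.47 at day 1 and 1.53 at day 5. Of 12 genes for interferon and JAK-STAT input to Cd274, 5 rose and 1 fell at day 1, and 10 rose and 1 fell at day 5. The 1 lower at day 1 was not called when any 1 of the 8 libraries of that day was left out. Irf9 rose by 2.48 ± 0.11 and 2.26 ± 0.10, Stat2 by 2.63 and 2.87, and Irf1 by 1.07 and 1.70. Of 3 genes for the protein's carriers and traffic, Cmtm6, whose product stabilises PD-L1, fell by 0.67 at day 5 (-0.67 ± 0.11, adjusted p = 2.53e-05), while Cd274 rose. Those lower at day 5 were 2 of the 3 without exposed replicate 1, and 1 was lower at day 1 without uninfected replicate 2.

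Of 16 genes of the maturation programme of dendritic cells, which shares Relb, Birc3 and Cd200 with the groups above, 7 rose and 1 fell at day 1, and 11 rose and 1 fell at day 5, or 2 without exposed day 5 replicate 2 or 3. Ccl17, a chemokine of mature dendritic cells, rose by 4.89 ± 0.32 at day 5. Ccl22 was lower at day 1 (-0.83 ± 0.24, edgeR adjusted p = 0.0173) and higher at day 5 (1.65 ± 0.22, adjusted p = 3.2e-06). Its day 1 call was lost without uninfected replicate 2 or exposed replicate 1 or 4, with adjusted p up to 0.0584. Of the markers of conventional dendritic cells 3 were tested. At day 1, 2 of them were called higher. All 3 were called higher at day 5. Of 8 such markers, Zbtb46, Clec9a and Batf3 exceeded 1 CPM, and their day 5 changes were 0.90, 1.43 and 0.44 on the log2 scale. Flt3, Xcr1, Cd209a, Dpp4 and Kit stood at 0.0519 CPM or less in every group mean, and the summed level of all 8 was 17.5 to 20.0 CPM in uninfected libraries, 25.9 to 32.0 at day 1 and 34.1 to 46.6 at day 5 in exposed ones. Their part in these results was not tested. Summed macrophage markers also rose with exposure, from 3270 to 3750 up to 7140 to 12700 CPM at day 5. Of the 7 alveolar macrophage markers, 2 were higher at day 5 (Itgax, 192.9 to 927.5 CPM, and Car4), 2 were lower (Chil3, 16120 to 2990 CPM, and Pparg) and 3 were not called. Chil3 made up most of their summed level in uninfected cells, which was 17100 to 24300 CPM against 7220 to 9360 in exposed ones.

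**Figure D4:**
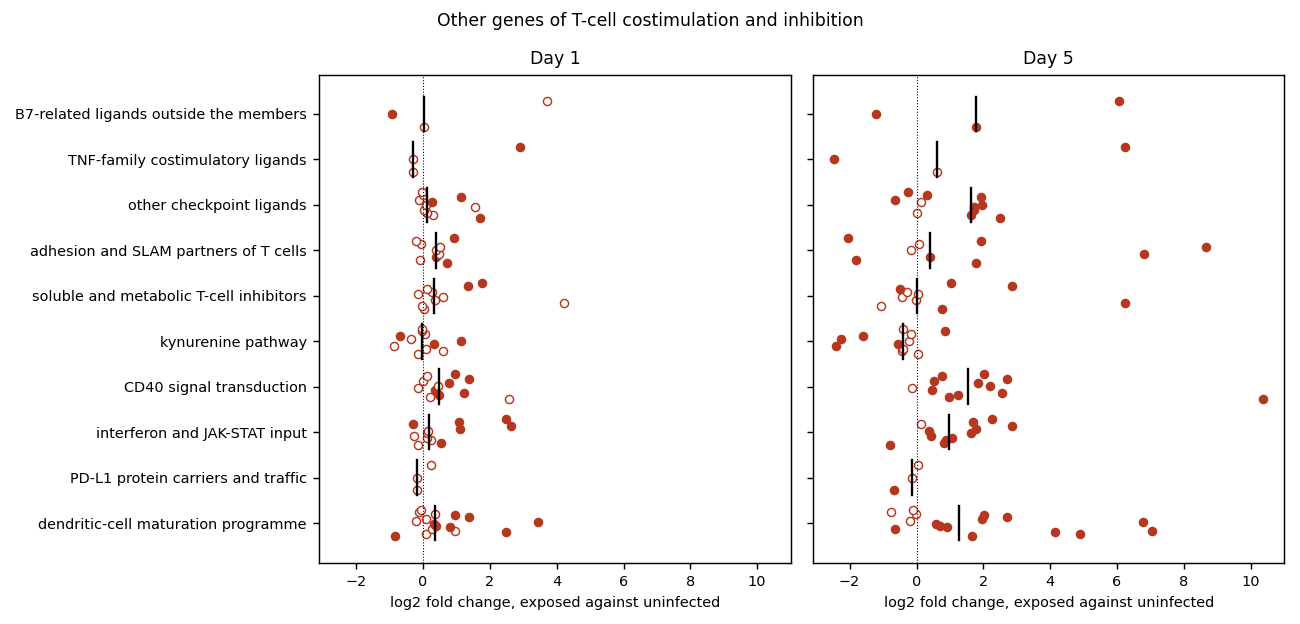
Log2 fold change of exposed against uninfected cells (horizontal axes) for the tested genes of the 10 groups around the members, at day 1 (left) and day 5 (right); each point is a gene, filled if its adjusted p was under 0.05, and the vertical bar is the median of the group. The CD40 signal genes lie at or above 0 at day 5 except 1 gene, and the genes of the kynurenine group, which includes Wars1, lie mostly below it.

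Of 9 receptors on the T-cell side, 4 were tested and 5 were nearly absent. Ctla4, Icos, Pdcd1, Cd40lg and Cd27 had group means of at most 0.0263 CPM and were not tested, and the T-cell markers Cd3g and Cd8a had 0 counts in all libraries. The CCR7 ligands Ccl19 and Ccl21a had 0 counts as well. Cd28 was present at 1.59 to 3.48 CPM in the group means and fell by 0.80 at day 5 (-0.80 ± 0.22, edgeR adjusted p = 0.00372). Tnfrsf9, which encodes 4-1BB, rose from 30.9 to 463 CPM at day 5 (3.91 ± 0.31, adjusted p = 1.4e-08), and Tnfrsf18, which encodes GITR, fell by 2.49 (-2.49 ± 0.18, adjusted p = 1.01e-09). B-cell markers summed to no more than 0.49 CPM in any library. Markers of 3 other cell types were present. Over all libraries neutrophil markers summed to 461 to 1210 CPM, epithelial markers to 14.0 to 73.8 and fibroblast markers to 9.75 to 22.4. In each group 3 or 4 of 6 neutrophil markers exceeded 1 CPM, as did 1 of 5 epithelial and 1 of 5 fibroblast markers. Which cells these came from was not tested.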

How the data were processed

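Polyadenylated RNA of 16 libraries was sequenced, 4 in each of 4 groups taken from the labels. Reads were aligned with STAR to GRCm39, per the submitters' processing notes; the version and the annotation are not given in the sources used here. The authors deposited raw counts per gene as whole numbers, and totals ran from 46154875 to 81995629 per library. Symbols came from GENCODE M21 by identifier without version, for 52083 of 55359 genes; the others held 0.449% of counts.

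From these counts, genes were filtered by group with filterByExpr (17190 tested), libraries were scaled by TMM, and the quasi-likelihood fit of edgeR 4.0.16 (R 4.3.3) took all libraries and 1 mean per group. Variation between replicates, as edgeR's common coefficient, came to 0.149. Each gene had 1 dispersion shared by the 4 groups, and standard errors were taken from the fold change and its F statistic. Two-sided p-values were adjusted over all tested genes (Benjamini-Hochberg), and those under 0.05 were called. CPM are counts relative to the scaled library size. A group at 0 counts was given a floor of 3 counts over its 4 libraries, and counting intervals are exact at 95%. The method was tested on simulated data. Members and lists were chosen with earlier results of these data known. From each list the text names up to 4 called genes with the smallest p at day 5 and 2 at day 1, and those called in opposite directions (1 gene so chosen is not reported here); genes of similar pattern are the 2 with the highest correlation. Receptors on the T-cell side and marker genes are named from lists of their own. As alternatives, RLE size factors and DESeq2 1.42.0 were used, the filter was dropped or set to 1 CPM in 4 libraries, and fits were made on the libraries of a comparison alone, with the replicate number as a term, with each library left out, with exposed day 5 replicates 1 and 4 only, and with replicates 1 and 2 or 3 and 4 of every group. Figures were drawn with matplotlib 3.10.9.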

Additional observations from a re-analysis of the deposited data

Results flagged for a closer look

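In exposed cells at day 5, Pdcd1lg2 measured 4.29 CPM in replicate 3, and its distance to the next library was 0.873 of the range of the group. In uninfected cells at day 5, Ccr7 measured 0.114 CPM in replicate 1, from 9 counts, with a distance of 0.972 of the range. Both exceed Dixon's critical value for a group of 4. These were 2 of 38 groups of 4 libraries examined over the 10 genes, and chance alone passes that value in about 1 of 20 groups. Without these libraries the day 5 effect of exposure on Pdcd1lg2 was 0.88 and that on Ccr7 was 4.51 on the log2 scale.

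The effect of exposure differed between day 5 and day 1, by the test of that difference, for Cd86 (1.56 higher at day 5 on the log2 scale), Cd274 (0.84) and Cd40 (4.09), and was lower at day 5 for Cd80 (-0.54). The direction was the same in all 24 alternatives for Cd86, Cd274 and Cd80 and in all 23 for Cd40.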

How the results depend on the processing

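Replicates of 4 limit these comparisons, and for Cd40, Ccr7 and Ido1 so do the counts. Counts of members here include Vtcn1, whose calls at day 5 and between exposed days follow from how it was chosen. They also include Cd40 and Ccr7, which passed the main filter only with the exposed libraries of day 5. The members called at day 1, 4 of 10, were 2 with replicates 1 and 2 alone and 1 with replicates 3 and 4 alone, which leave 2 libraries a group. The change of effect, 4 members in all, fell to 1 in each of these, and the 7 called between exposed days became 4 with replicates 1 and 2. In uninfected cells the fit on their own libraries called 4 members in place of 1. The 31 surrounding genes called at day 1 became 47 with the day 1 libraries alone, 18 with replicates 1 and 2 and 13 with replicates 3 and 4, and the 46 of the change of effect became 27 with replicates 3 and 4. With 1 library left out, members called ranged over 3 to 4 at day 1, 8 to 9 at day 5, 3 to 5 for the change, 1 to 1 in uninfected and 5 to 7 in exposed cells, and surrounding genes over 27 to 30, 63 to 70 and 44 to 54. 

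Same-numbered libraries did not deviate together (correlations from -0.151 to 0.148 over 24 pairs, 3 above 0.1), so the number was not taken as a pairing. With the replicate block, members called were 4 at day 1, 8 at day 5, 4 for the change, 1 in uninfected and 6 in exposed cells, and surrounding genes 32, 64 and 47.

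Only values that were not called changed direction. Between exposed days Icosl was 0 with the 1 CPM filter and 0.10 with replicates 1 and 2, and -0.16 to 0.10 with 1 library left out. Between uninfected days Pdcd1lg2 was -0.08 and Ido1 -0.02 with replicates 1 and 2, and Cd40 ranged from -0.29 to 1.28 with 1 library left out. For Ido1 exposed replicates 1 and 4 alone gave -0.40 at day 5 and -0.61 between exposed days. With replicates 1 and 2 the latter was -0.23, and with replicates 3 and 4 the change of effect was 0.05. With 1 library left out Ido1 ranged from -0.09 to 0.49 at day 5, -0.44 to 0.21 for the change and -0.29 to 0.37 between exposed days. Of 803 single-gene values under the alternatives, 718 kept direction and call. The 1 CPM filter removed Cd40, Ccr7 and Ido1, fits on their own libraries left out Cd40 and Ccr7 at day 1 and between uninfected days, and the change of effect has no fit on fewer groups. The causes of these differences were not tested.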
